A study of Mus musculus with 52 samples.

Results

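The miR-290 and miR-302 clusters are microRNA clusters known for their part in mouse pluripotency, and the deposited enhancer tables were read around the hairpin that names each, Mir290a and Mir302a. Both hairpins were located in the mm10 annotation, and every enhancer with its centre within 100 kb of the 5′ end of either was taken as a member. The rule gave 14 regions of 25370 in all. Of these, 9 came from the 16576 enhancers of epiblast-like cells (EpiLCs) and 5 from the 8794 enhancers of mouse embryonic stem cells (mESCs). Around Mir290a lay 4 EpiLC enhancers and 1 mESC enhancer, and around Mir302a 5 EpiLC and 4 mESC enhancers.

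The study profiled chromatin by immunoprecipitation and sequencing in 52 libraries, inputs included, 9 from EpiLCs and 43 from mESCs. They formed 34 groups by cell type, antibody or input, and genotype, and the label of the EpiLC input states no genotype. EpiLCs were made from mESCs over 48 hours, and the mESCs grew without feeders in LIF and 2i, which holds them in the naive state. The genotypes were cK27R (lysine 27 replaced by arginine in canonical histone H3 alone), pK27R (in all H3), SUZ12KO, H3-3KO (an H3.3 knockout) and pK27WT (a knockout with wild-type add-back). In the H3.3 immunoprecipitations the labels describe pK27R as a knockout with K27R mutant add-back. They were set against the control line ABE on the same C57BL6/129Sv background, and the cK27R and pK27R libraries came from independent clones. The antibodies were against H3K27ac (in separate groups labelled Rb and Ms), H3K27me2, H3K27me3, H3.3, RNA polymerase II and Med1. The tables analysed here hold 0 columns with a value per library, so no mutant is compared with its control, and the results describe where the regions lie. The region sets carry no replicates, which leaves every value below without an error or a test.

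The EpiLC set rests on H3K27ac, H3K4me1 and p300 peaks of one earlier publication and the mESC set on another, and the study's authors lifted both over to mm10. The sets thus come from the cells of those publications and not from the libraries above. Below, a region in EpiLCs or in mESCs means a region of that set. A difference between the sets at a locus therefore cannot be told apart from the cells each publication used or the way it drew its regions. EpiLC regions were also wider, with a median width of 1750 bp against 711 bp for the mESC regions.

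A microRNA is cut from a hairpin in a longer primary transcript, and bases 2 to 8 of the mature strand, the seed, pair with target mRNAs. Several hairpins in one transcript form a cluster. The miR-290 cluster is the main microRNA product of naive mouse embryonic stem cells, while the miR-302 cluster is best known from the epiblast and from primed pluripotent cells. Members of both are known to hasten entry into S phase by repressing inhibitors of the cell cycle such as Cdkn1a, and to favour the pluripotent state over differentiation.

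The clusters share a seed, which their mature sequences show. RefSeq (GRCm38.p6) lists 26 mature strands for the 14 hairpins, 17 from the Mir290a cluster and 9 from the Mir302a cluster, with 16 different seeds. The list gives Mir302a and Mir292 a 5p strand only, so the seeds of their 3p strands were not compared. Among the listed strands, the seed AAGUGCU occurs in both clusters, in 3 of the Mir290a cluster and 2 of the Mir302a cluster. Both counts leave out those missing 3p strands. No other mature microRNA among the 1738 listed carries it. Capitals mark the seed in all the lines that follow.
miR-291a-3p: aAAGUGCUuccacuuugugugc
miR-294-3p: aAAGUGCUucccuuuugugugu
miR-295-3p: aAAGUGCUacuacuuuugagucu
miR-302b-3p: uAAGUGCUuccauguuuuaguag
miR-302d-3p: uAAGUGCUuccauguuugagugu

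A second set of 3p strands has seeds that are close to this one. In miR-291b-3p and miR-290a-3p the seed differs in its last base alone. In miR-302c-3p the strand starts a base later, so that the same run of letters sits in a shifted frame.
miR-291b-3p: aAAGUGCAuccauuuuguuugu
miR-290a-3p: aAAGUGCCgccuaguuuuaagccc
miR-302c-3p: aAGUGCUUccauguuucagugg

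The 5p strands and miR-367-3p separate the clusters. The seed CUCAAAC is shared by 3 strands of the Mir290a cluster, and CUUUAAC by 3 strands of the Mir302a cluster. The seed of miR-367-3p, AUUGCAC, is listed for 6 microRNAs outside both clusters, among them miR-363-3p and miR-92a-3p, which come up again below.
miR-290a-5p: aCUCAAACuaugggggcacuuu
miR-292a-5p: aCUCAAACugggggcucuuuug
miR-293-5p: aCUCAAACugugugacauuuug
miR-302b-5p: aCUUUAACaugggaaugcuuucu
miR-302c-5p: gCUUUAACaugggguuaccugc
miR-302d-5p: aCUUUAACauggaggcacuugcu
miR-367-3p: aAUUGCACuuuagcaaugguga

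The enhancers of the 2 loci were laid out differently. At Mir290a most of the enhancer sequence stood in a single wide block, which reached over the hairpins in EpiLCs and ended just upstream of them in mESCs. At Mir302a it was split between small regions at the cluster and a larger group within the gene Ank2, more than 80 kb upstream. Having at least 1 EpiLC enhancer within 100 kb was common, at 64.4% of the 55413 annotated genes, 65.3% of the 2202 microRNA genes and 73.3% of the 21938 protein-coding genes. For mESC enhancers the shares were 48.7%, 55.6% and 53.3%. The presence of an enhancer near both hairpins is thus a common state, and the layout carries the detail.

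**Figure D1:**
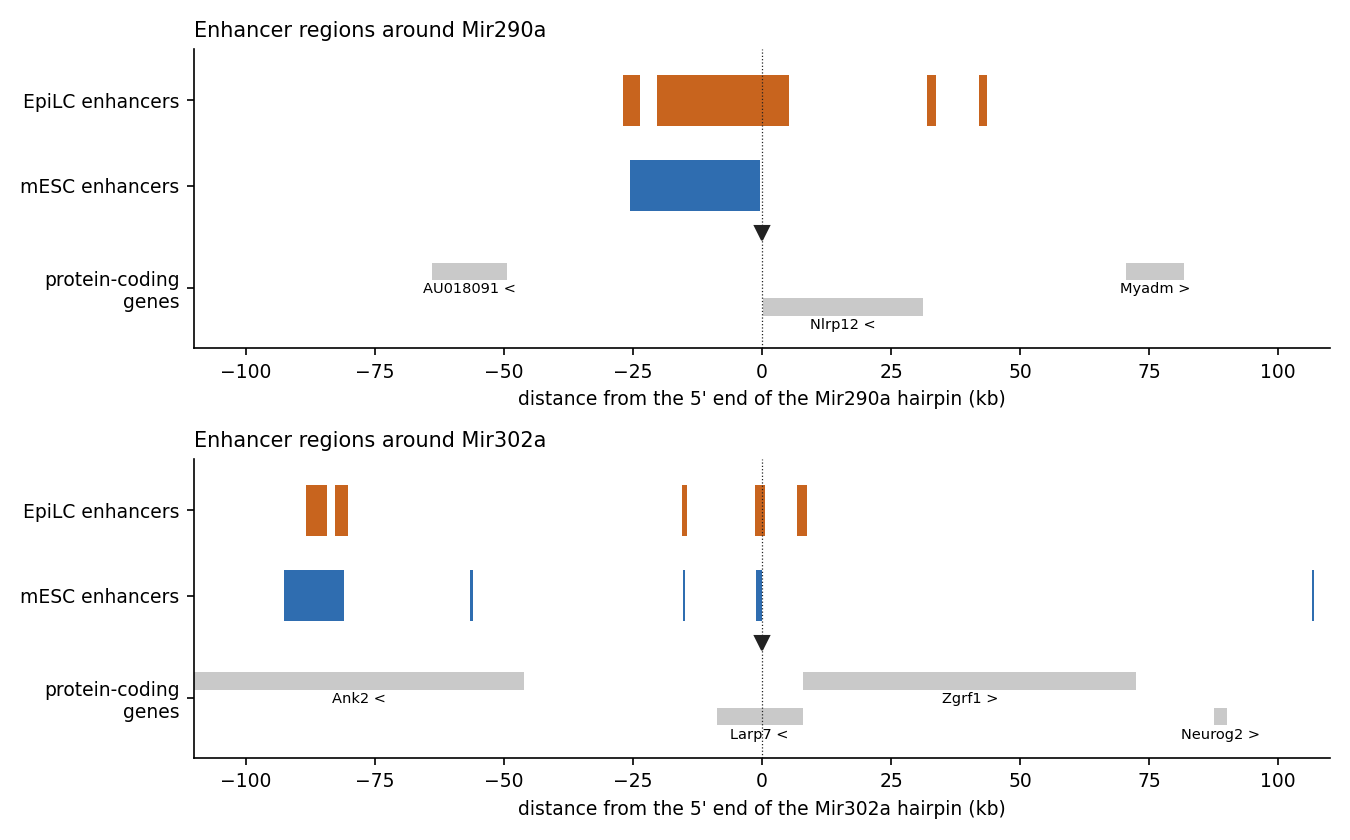
Enhancer regions within about 100 kb of the Mir290a hairpin (upper panel) and the Mir302a hairpin (lower panel), against the distance in kb from the hairpin's 5′ end. Orange bars are EpiLC enhancers, blue bars mESC enhancers and grey bars the protein-coding genes named in the text, with an arrow for their strand; the triangle marks the hairpin. The wide block at Mir290a reaches past the hairpin in EpiLCs and ends before it in mESCs, whereas the Mir302a regions are spread over Ank2, the stretch between the genes and the cluster.

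The Mir290a hairpin lies at chr7:3218626-3218708 on the plus strand (mm10) and is the first of 9 hairpins that end at 3220841, a cluster of 2216 bp. Of the hairpins, 7 are on the plus strand, and Mir290b and Mir292b are on the minus strand opposite Mir290a and Mir292. Positions given in kb run from the 5′ end of the hairpin, with negative values upstream.

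The main EpiLC enhancer at Mir290a spanned chr7:3198341-3223901, which is 25561 bp with its centre at -7.51 kb. Only 11 of the 16576 EpiLC regions, itself included, were at least this wide, and it measured 14.6 times the median width. It held all 9 hairpins. The only mESC enhancer within 100 kb spanned chr7:3193004-3218182, which is 25179 bp with its centre at -13.0 kb. It ranked 21st of 8794 by width, at 35.4 times the median, and its centre fell between genes.

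A second EpiLC region of 3376 bp stood farther upstream at chr7:3191701-3195076, centred at -25.2 kb. This region shared 2073 bp with the mESC enhancer, or 61.4% of its own length, and the main EpiLC region shared 19842 bp, or 77.6% of its own. Together they covered 87.0% of the mESC enhancer. The 3264 bp left over filled the gap between the EpiLC regions, so that 2 EpiLC regions faced 1 mESC region.

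To the right of the mESC enhancer the sets parted. The EpiLC block ran 5719 bp past the right edge of the mESC enhancer, over the cluster and beyond it. Farther on, EpiLC regions of 1717 bp at chr7:3250602-3252318 (32.8 kb) and 1600 bp at chr7:3260577-3262176 (42.8 kb) overlapped no mESC enhancer. The first of them had its centre 1720 bp from the start of Nlrp12, a gene for a NOD-like receptor of the innate immune system, and 73.1% of its bases were soft-masked repeats, against a median of 19.7% over all EpiLC enhancers. The second lay between genes with 30.7% repeats.

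The mESC enhancer at Mir290a also belonged to a distinct part of its table. The first 231 rows, 2.63% of the mESC table, run through the chromosomes once before the chromosome order starts again, and this region is among them. The table names no class for these rows. Their median width was 8667 bp, with quartiles of 3389 and 15130 bp, against 703 bp for the other 8563 rows. Wide regions were not confined to this block, since 295 of the 403 mESC regions of at least 10 kb lay outside it. By width the Mir290a region was 14th within the block. None of the 4 mESC enhancers at Mir302a was in the block.

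Overlap with EpiLC enhancers was common in that block. Of its 231 rows, 223 (96.5%) overlapped at least 1 EpiLC enhancer and 105 overlapped at least 2, as the Mir290a region did. The median row shared 77.0% of its bases with EpiLC enhancers. The Mir290a region, at 87.0%, was 1 of 100 rows that shared at least as large a part.

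The sets also differed at the edge nearest the hairpins. The EpiLC enhancer held all 2216 bp of the cluster, while the mESC enhancer held 0 and stopped 444 bp before the first base of Mir290a. RefSeq places a transcript, D7Ertd143e, over 7 of the hairpins, 6 of them on its own strand, at chr7:3218784-3221015. The RefSeq body of Nlrp12, chr7:3218643-3249771 on the minus strand, reaches over 7 of the hairpins as well, with 1 on its own strand. The annotated start of D7Ertd143e lies 158 bp downstream of the 5′ end of Mir290a, inside the EpiLC region and outside the mESC one. It falls past the end of that hairpin, so the transcript as annotated leaves Mir290a out. Where the primary transcript of Mir290a starts is not given here. The 300 bases around that start, chr7:3218534-3218833 on the plus strand, contain the whole Mir290a hairpin; capitals mark miR-290a-5p and miR-290a-3p.
D7Ertd143e promoter: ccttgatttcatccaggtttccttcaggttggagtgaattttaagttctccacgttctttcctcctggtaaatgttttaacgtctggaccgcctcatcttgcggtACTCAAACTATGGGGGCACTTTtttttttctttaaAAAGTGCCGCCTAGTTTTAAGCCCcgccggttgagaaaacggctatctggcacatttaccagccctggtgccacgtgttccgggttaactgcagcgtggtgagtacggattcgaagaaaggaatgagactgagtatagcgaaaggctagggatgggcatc

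**Figure D2:**
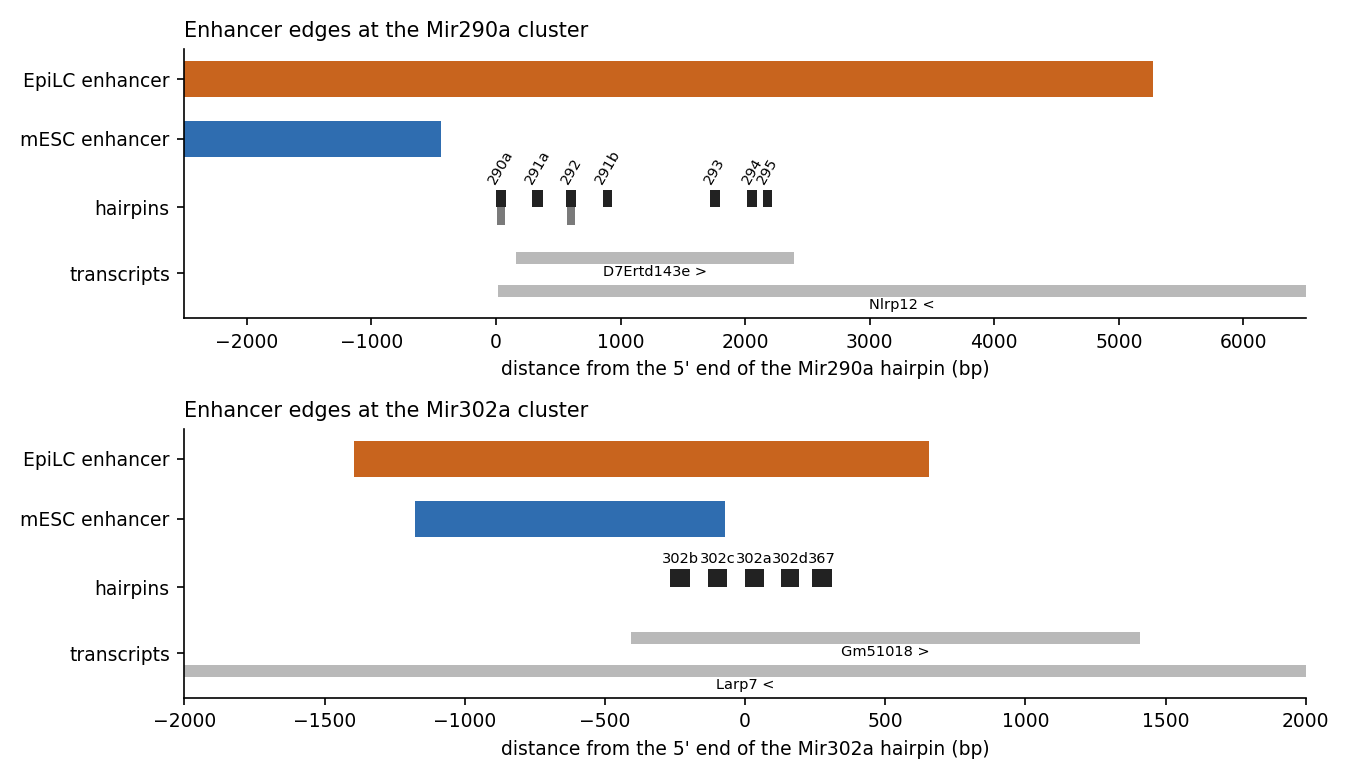
Enhancer edges at the Mir290a cluster (upper panel) and the Mir302a cluster (lower panel), against the distance in bp from the 5′ end of the naming hairpin. Orange and blue bars are the EpiLC and mESC enhancers, black and dark grey boxes the hairpins on the plus and minus strand, and light grey bars the RefSeq transcripts with their strand. The EpiLC bars cover all hairpins, whereas the mESC bar stops 444 bp before Mir290a and, at the Mir302a cluster, ends within the second hairpin.

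Mir302a lies at chr3:127545496-127545564 on the plus strand, inside the body of Larp7, which runs on the other strand and encodes a protein that binds and stabilises the 7SK RNA. Its cluster has 5 hairpins in 580 bp, all on the plus strand, in the order Mir302b, Mir302c, Mir302a, Mir302d and Mir367. Mir302b is therefore the first by position, its 5′ end at -268 bp from that of Mir302a.

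At the cluster itself the EpiLC enhancer was 2050 bp long, chr3:127544102-127546151, centred at -0.370 kb, and held all 5 hairpins. The mESC enhancer was 1107 bp long, chr3:127544318-127545424, centred at -0.625 kb, and lay wholly within the EpiLC one. The EpiLC region reached 216 bp farther to the left and 727 bp farther to the right. Both contained the start of the RefSeq transcript Gm51018 (chr3:127545089-127546903, plus strand), which spans the 5 hairpins and begins at -407 bp.

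The mESC enhancer at the Mir302a cluster ended among the hairpins. It covered 197 bp of the cluster, or 34.0%, with Mir302b whole and 62 of the 68 bases of Mir302c. Its last base fell within the mature strand miR-302c-3p, of which it held 19 of 22 bases, and Mir302a, Mir302d and Mir367 lay outside. The stretch from Mir302b to Mir302c, chr3:127545228-127545430 on the plus strand, shows where that edge falls; capitals mark the 5p and 3p strands of miR-302b and then of miR-302c.
Mir302b to Mir302c: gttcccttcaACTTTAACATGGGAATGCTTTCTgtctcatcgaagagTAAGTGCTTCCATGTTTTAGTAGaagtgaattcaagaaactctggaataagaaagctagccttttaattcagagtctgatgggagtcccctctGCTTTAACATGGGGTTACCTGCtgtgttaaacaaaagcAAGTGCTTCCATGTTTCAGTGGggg

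Away from the cluster, both sets had regions in an intron of Ank2, the gene of the membrane adaptor ankyrin-B. The EpiLC regions there were 4150 bp (chr3:127457127-127461276, -86.3 kb) and 2375 bp long (chr3:127462827-127465201, -81.5 kb). The mESC region was 11634 bp long, chr3:127452977-127464610, centred at -86.7 kb, and ranked 293rd by width, at 16.4 times the median. The first EpiLC region lay wholly within it and the second for 75.1% of its length. They covered 51.0% of the mESC region, so here too 2 narrower EpiLC regions faced 1 wide mESC region.

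Between Ank2 and the cluster, regions of both sets met at -15.1 kb. The EpiLC region was 1000 bp long (chr3:127529927-127530926), and the mESC region of 455 bp (chr3:127530132-127530586) lay wholly inside it. Each set had 1 region without a partner. In EpiLCs it was a region of 2000 bp at chr3:127552302-127554301 (7.81 kb), and in mESCs one of 552 bp at chr3:127488931-127489482 (-56.3 kb) in an intron of Ank2.

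The EpiLC region without a partner at Mir302a differed from the other members in base composition. It held the starts of both Larp7 and Zgrf1, which run in opposite directions, and had 46.5 CpG per kb, against 8.13 to 16.8 CpG per kb in the other 8 EpiLC members and a median of 13.4 over all EpiLC enhancers. Zgrf1 encodes a DNA helicase. The region's centre was 46 bp from the start of Larp7.

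In bases, EpiLC enhancers covered 32254 bp, or 16.1%, of the 200 kb around Mir290a, and mESC enhancers 25179 bp, or 12.6%. Bases in both sets came to 21915 bp, which is 68.0% of the EpiLC cover and 87.0% of the mESC cover. Around Mir302a the order of the sets was the other way round, with 11575 bp (5.79%) in EpiLC enhancers and 13748 bp (6.87%) in mESC enhancers. There 7496 bp lay in both, which is 64.8% of the EpiLC cover and 54.5% of the mESC cover. That order turned round within 50 kb, with 5050 bp in EpiLC enhancers and 1562 bp in mESC enhancers, since the 11634-bp mESC region in Ank2 lies farther out.

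Counted as regions, 6 of the 9 EpiLC members overlapped an mESC enhancer by at least 1 bp, against 25.9% of all EpiLC enhancers. Of the 5 mESC members, 4 overlapped an EpiLC enhancer, against 42.9% of all mESC enhancers. By locus, 2 of 4 EpiLC and 1 of 1 mESC enhancers overlapped at Mir290a, and 4 of 5 EpiLC and 3 of 4 mESC enhancers at Mir302a. With so few regions these shares are counts, and wide regions overlap more readily than narrow ones.

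Just outside the window the counts would have grown. On the Mir290a side, EpiLC regions of 6175 bp at 129 kb and 9000 bp at 151 kb and an mESC region of 792 bp at 129.5 kb were left out, the last in an intron of Cacng7, a gene for a calcium channel subunit. On the Mir302a side, an mESC region of 536 bp at 107 kb was left out, 19122 bp from the start of Neurog2, which encodes a proneural transcription factor. The outermost members kept were the Ank2 regions at -86.3 kb in EpiLCs and -86.7 kb in mESCs.

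Among all annotated genes Mir290a ranked higher by covered bases than by count. A count of at least 4 EpiLC enhancers was reached by 19.2% of genes, and at least 1 mESC enhancer by 48.7%. Within 50 kb the shares by count were 6.58% and 31.1%. A cover of at least 32254 bp by EpiLC enhancers was reached by 1.36% of genes, and of at least 25179 bp by mESC enhancers by 0.404%. Among the 2202 microRNA genes, 41 (1.86%) had at least as much EpiLC cover as Mir290a and 13 (0.590%) at least as much mESC cover. These numbers include the other hairpins of the same cluster, which share its regions.

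Mir302a ranked higher in the mESC set than in the EpiLC set. At least 5 EpiLC enhancers were near 12.5% of genes, and at least 4 mESC enhancers near 2.08%. Its EpiLC cover was reached by 13.2% of genes and its mESC cover by 2.27%. Among microRNA genes the shares were 16.7% (367 genes) and 2.91% (64 genes). The median over all genes was 1.78 kb of EpiLC cover and 0 kb of mESC cover.

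**Figure D3:**
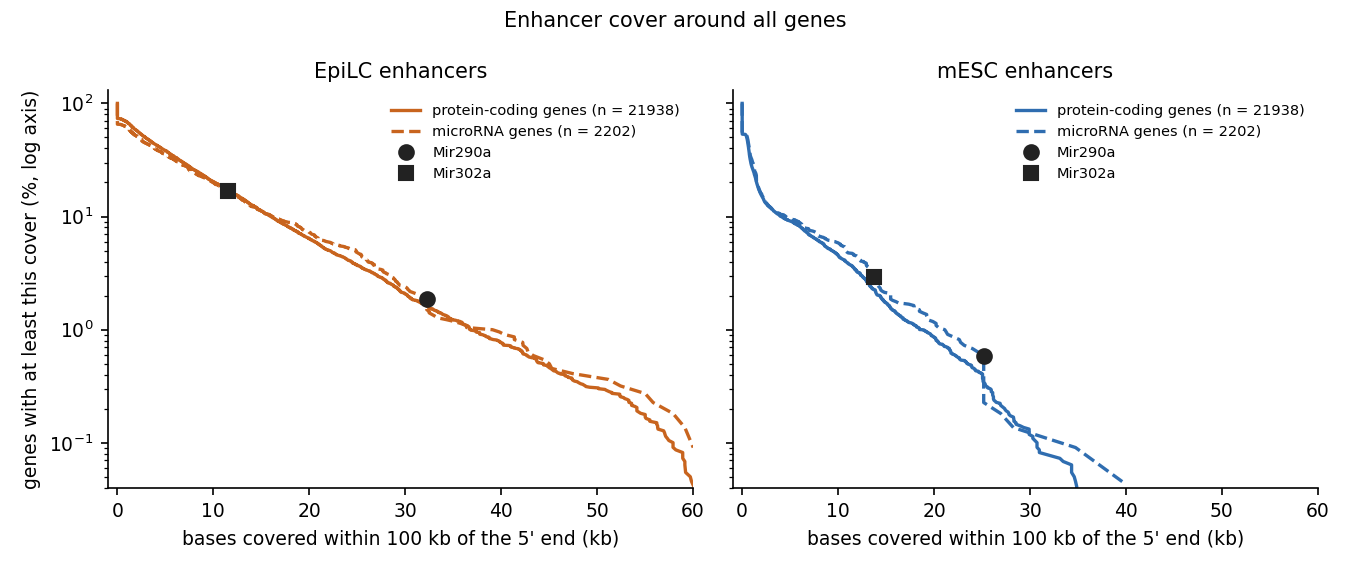
Share of genes (%, log axis) with at least a given number of kb covered by EpiLC enhancers (left) and mESC enhancers (right) within 100 kb of the gene's 5′ end. Solid lines are protein-coding genes and dashed lines microRNA genes, and the circle and square mark Mir290a and Mir302a on the microRNA line. Mir290a sits at 1.86% in the left panel and 0.590% in the right, and Mir302a at 16.7% and 2.91%.

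Hairpins that lie inside an enhancer are rarer than hairpins near one. An EpiLC enhancer held 122 of the 2202 annotated microRNA hairpins whole (5.54%), including the 14 hairpins of both clusters. An mESC enhancer held 18 (0.817%), of which Mir302b was the only one from these clusters. Mir302b was also 1 of 8 hairpins inside an enhancer of both sets; the others were Mir135b, Mir6347, Mir3063 and the unnamed models Gm24158, Gm44346, Gm27805 and Gm25306.

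When hairpins within 10 kb of each other were joined, 147 clusters had at least 2 hairpins. Of these, 10 lay whole inside EpiLC enhancers and 1 inside mESC enhancers. Of the 11 clusters with at least 5 hairpins, a size chosen after the values were seen, 2 lay whole inside EpiLC enhancers, and they were the Mir290a and Mir302a clusters. None of the 11 lay whole inside mESC enhancers. A further 8 clusters, among them Mir17 to Mir92-1 with 6 hairpins and the 119 hairpins from Gm22072 to Mir669h, had 0 hairpins inside enhancers of either set.

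**Figure D4:**
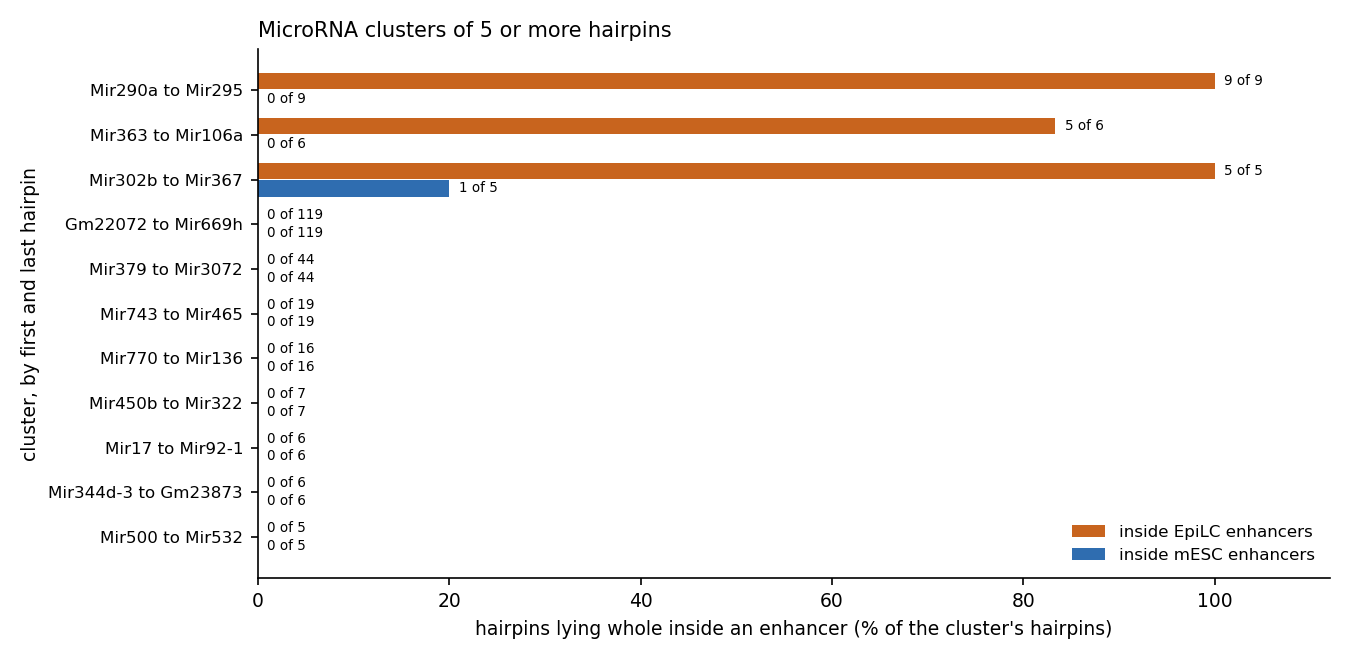
Percent of the hairpins of each microRNA cluster that lie whole inside an EpiLC enhancer (orange, upper bar) or an mESC enhancer (blue, lower bar), for the 11 clusters with at least 5 hairpins; the number beside each bar gives hairpins inside and hairpins in all. EpiLC enhancers held 9 of 9 hairpins of the Mir290a cluster, 5 of 5 of the Mir302a cluster and 5 of 6 of the Mir106a cluster, and mESC enhancers held 1 of 5 at Mir302a and 0 elsewhere.

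Among the 11 clusters with at least 5 hairpins, the third with hairpins in an EpiLC enhancer was that of Mir106a on chromosome X. It had 5 of 6 hairpins in an EpiLC region of 6525 bp (chrX:52741802-52748326). Its layout resembled that of Mir290a in the order of the regions, though not in their size. The cluster is on the minus strand, and an mESC region of 15479 bp (chrX:52745455-52760933) began 2888 bp upstream of Mir106a and held 0 hairpins. That region was the last row of the leading block, and 2 EpiLC regions overlapped it. At Mir290a the EpiLC region with the hairpins was wider, at 25561 bp, and the mESC edge nearer, at 444 bp from the hairpin. The cluster also shares sequence with the other two. Its miR-363-3p and miR-92a-3p carry the seed of miR-367-3p, and the seed of miR-106a-5p and miR-20b-5p, AAAGUGC, is AAGUGCU read with 1 more A in front and a base fewer at its end.
miR-363-3p: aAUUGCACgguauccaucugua
miR-92a-3p: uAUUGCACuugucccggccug
miR-106a-5p: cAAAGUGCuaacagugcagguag
miR-20b-5p: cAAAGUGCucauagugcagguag

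Sequence motifs of pluripotency factors were searched on both strands in the 300 bp at each enhancer's centre. The letters were ATGCAAAT (POU octamer), ACAATG (SOX core), TCAAGGTCA (ESRRB), CCACACCC (KLF), TTCCNGGAA (STAT), GGATTA (OTX) and AACCGGTT (GRHL), none of which holds another. At least 1 of them was present in 7 of the 14 member windows (50.0%) and in 37.0% of all 25370 windows. A match is a description of letters, and neighbouring members share sequence where they overlap.

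The window of the 2375-bp EpiLC region in Ank2 was the only member window with 2 different motifs. It holds an octamer, present in 3.37% of EpiLC windows, and a GGATTA, present in 12.0%. The sequence is chr3:127463864-127464163, plus strand, with both matches in capitals.
Ank2 EpiLC centre: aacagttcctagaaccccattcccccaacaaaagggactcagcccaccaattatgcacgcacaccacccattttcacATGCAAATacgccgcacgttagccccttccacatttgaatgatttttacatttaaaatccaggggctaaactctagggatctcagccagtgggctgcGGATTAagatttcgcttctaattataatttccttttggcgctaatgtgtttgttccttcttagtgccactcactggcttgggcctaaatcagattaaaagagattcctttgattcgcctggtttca

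The mESC region at the Mir302a cluster had 2 SOX cores in its window, in opposite orientations, a motif found in 27.6% of mESC windows. The window, chr3:127544721-127545020 on the plus strand, ends before the start of Gm51018, and capitals mark the cores. The mESC region of 552 bp in Ank2 also had 1 SOX core in its window.
Mir302a mESC centre: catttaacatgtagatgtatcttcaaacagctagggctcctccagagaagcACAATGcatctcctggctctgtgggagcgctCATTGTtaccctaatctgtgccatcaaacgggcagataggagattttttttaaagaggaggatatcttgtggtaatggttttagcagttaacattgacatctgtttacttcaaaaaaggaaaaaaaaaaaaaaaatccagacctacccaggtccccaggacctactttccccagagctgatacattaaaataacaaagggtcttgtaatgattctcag

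At Mir290a the rarest match was the ESRRB motif, present in 1.09% of EpiLC windows. It stood in the window of the 1600-bp EpiLC region at 42.8 kb, chr7:3261227-3261526, where capitals mark it on the minus strand. The window of the EpiLC region next to Nlrp12 had 1 SOX core, found in 14.5% of EpiLC windows. The windows of the 2 wide Mir290a regions each had 1 GGATTA, which 13.2% of mESC windows also hold.
Mir290a EpiLC downstream centre: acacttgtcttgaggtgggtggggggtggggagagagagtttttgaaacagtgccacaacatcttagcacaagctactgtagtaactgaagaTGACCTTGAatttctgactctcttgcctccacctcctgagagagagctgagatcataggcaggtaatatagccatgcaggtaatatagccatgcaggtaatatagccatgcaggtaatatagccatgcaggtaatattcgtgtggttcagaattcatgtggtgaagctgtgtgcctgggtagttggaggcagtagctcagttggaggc

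Neither RefSeq promoter held any of the 7 motifs. Among 32851 RefSeq promoters of the same length, shares ran from 0.146% for GRHL to 12.6% for the SOX core. The absence is thus the usual state of a promoter and no trait of these. The promoter of Gm51018, chr3:127544839-127545138 on the plus strand, is shown because it lies within the enhancers of both sets. It had 5 CpG and 40.3% GC, against 14 CpG and 47.7% GC in the D7Ertd143e promoter above.
Gm51018 promoter: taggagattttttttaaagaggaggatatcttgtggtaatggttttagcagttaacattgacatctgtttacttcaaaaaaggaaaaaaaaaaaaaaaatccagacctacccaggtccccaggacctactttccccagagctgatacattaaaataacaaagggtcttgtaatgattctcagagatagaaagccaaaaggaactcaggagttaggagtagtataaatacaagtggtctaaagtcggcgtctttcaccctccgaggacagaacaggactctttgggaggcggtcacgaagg

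Over their whole length, the wide Mir290a regions were rich in GGATTA. The 25561-bp EpiLC region had 30 matches, or 1.17 per kb, and 7 of the 232 EpiLC regions of at least 10 kb had as many per kb, against a median of 0.540. The 25179-bp mESC region had 27 matches, or 1.07 per kb, and 8 of the 403 mESC regions of at least 10 kb had as many, against a median of 0.461. Most of the matches, 19 of 30 in the EpiLC region and 21 of 27 in the mESC region, lay in soft-masked repeats. Both regions hold the same 19842 bp, and matches there count in both.

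Another motif was denser there than in most wide regions, on few matches and outside repeats. TTCCNGGAA, the letters of a STAT site, occurred 3 times in the EpiLC region, a density reached by 17 of the 232 wide EpiLC regions. It occurred 4 times in the mESC region, a density reached by 8 of the 403 wide mESC regions, and none of these matches lay in a repeat. The SOX core was less dense than the median wide region in both, with 9 matches (0.352 per kb) in the EpiLC region against a median of 0.495, and 9 matches (0.357 per kb) in the mESC region against 0.600. The octamer had 2 matches in the EpiLC region (0.0782 per kb, median 0.0507) and 1 in the mESC region (0.0397 per kb, median 0.0789). The KLF motif had 2 matches in each, below the median in both (0.0782 per kb against 0.0990 in EpiLC, 0.0794 against 0.0840 in mESC). The ESRRB motif had 1 match in the EpiLC region and 0 in the mESC region, and GRHL had 0 in both. The 11634-bp mESC region in Ank2 had 1 octamer, 7 SOX cores and 9 GGATTA, and 48 of the 403 wide mESC regions had as many GGATTA per kb.

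Of the 7 protein-coding genes named near the clusters, 2 had their start in an EpiLC enhancer and 0 in an mESC enhancer. Among all protein-coding genes the shares were 14.0% for EpiLC and 1.13% for mESC enhancers, and 14.5% for either. Around Mir290a the starts of AU018091 (-49.4 kb), Nlrp12 (31.1 kb) and Myadm (70.5 kb), which encodes a membrane protein of myeloid cells, lay in no enhancer of either set. Around Mir302a the starts of Larp7 (7.85 kb) and Zgrf1 (7.99 kb) lay in an EpiLC enhancer and in no mESC enhancer. Those of Ank2 (-46.1 kb) and Neurog2 (87.6 kb) lay in none. The body of Ank2 held the centres of 7 EpiLC and 5 mESC enhancers, counting those beyond the window.

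The authors' own gene intervals give each hairpin as a row. All 9 hairpins of the Mir290a cluster and all 5 of the Mir302a cluster had a row of exactly their own length, none over 100 bp, among 15 and 10 rows within 100 kb. D7Ertd143e was also a row. In a quantification over these genes, such rows are short, and at both clusters they lie inside an EpiLC enhancer.

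The machinery that makes and controls microRNAs had enhancers of both sets nearby. All 16 listed processing genes had an EpiLC enhancer within 100 kb and 15 an mESC enhancer, against 73.3% and 53.3% of all protein-coding genes. The genes are not all separate cases. Ago1, Ago3 and Ago4 stand near each other on chromosome 4, and each had 1 mESC enhancer with the same cover of 0.637 kb. Their median covers were 5.83 kb and 0.762 kb. The medians over all protein-coding genes were 2.90 kb and 0.478 kb. When an enhancer counted only for the nearest annotated start within 50 kb, 6 genes had an EpiLC and 6 an mESC enhancer. No share of all genes by this stricter rule is given here, and the shares within 100 kb do not apply to it. These counts therefore cannot be called low or high. The gene with the most was Trim71, an RNA-binding factor of stem cells and a target of let-7, with 10 EpiLC and 4 mESC enhancers. Lin28a, whose product blocks let-7 maturation, had 7 EpiLC and 2 mESC enhancers, Dgcr8, a subunit of the nuclear Microprocessor, had 3 and 3, and Tut4, which adds uridines to the let-7 precursor, had 5 and 1.

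Of 13 genes reported as targets of the clusters, 9 (69.2%) had an EpiLC and 10 (76.9%) an mESC enhancer within 100 kb, against 73.3% and 53.3% of all protein-coding genes. The EpiLC share was thus near that of all genes. Counted by the nearest start alone, as above, 5 had an EpiLC and 4 an mESC enhancer, again without a share of all genes. Their median covers were 9.38 kb for EpiLC and 1.499 kb for mESC enhancers, against 2.90 kb and 0.478 kb over all protein-coding genes. Cdkn1a, the gene of the cell-cycle inhibitor p21, had 11 EpiLC and 5 mESC enhancers. Lefty1 and Lefty2, genes of Nodal antagonists that stand side by side and share their regions, had 9 EpiLC and 2 mESC enhancers. Lats2, which encodes a kinase of the Hippo pathway, had 5 and 1. Rbl2, of the retinoblastoma family, and Tgfbr2, of the TGF-beta receptors, had none in either set.

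A list of 10 other microRNA loci was chosen as linked to pluripotency, and its microRNAs are not limited to pluripotent cells. Of these loci, 9 had an EpiLC and 6 an mESC enhancer, against 65.3% and 55.6% of all microRNA genes. Median covers were 9.08 kb and 0.717 kb. By the nearest start alone, 3 had an EpiLC and 1 an mESC enhancer, again without a share of all genes. Mir183 had 8 EpiLC and 4 mESC enhancers, Mir200c 7 and 1, Mir106a 6 and 1, and Mir200b 5 and 1. Mir17, which heads a cluster related to that of Mir106a, had none. Mir290a, with 32254 bp of EpiLC and 25179 bp of mESC cover, exceeded all 10 in both sets. Mir302a, with 11575 bp and 13748 bp, did not. Mir106a had more cover than Mir302a in both sets, at 14.55 kb and 15.48 kb, and was the only listed locus with more mESC cover.

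Of 25 loci of microRNAs known from differentiated cells, 20 had an EpiLC enhancer and 18 an mESC enhancer, against 65.3% and 55.6% of all microRNA genes. Mir143 and Mir145a stand close together on chromosome 18 with the same counts and covers, and were counted separately. Over the whole list the counts by the nearest start alone were 1 and 2, again without a share of all genes. Median covers were 4.90 kb and 0.856 kb. The medians over all microRNA genes were 2.18 kb and 0.539 kb. Mir124a-1, a neuronal microRNA, had 9 EpiLC and 2 mESC enhancers, Mir296 had 6 and 3, Mir9-1, of neural progenitors, 6 and 2, and Mir34a, a target of p53, 6 and 0. Mir134, Mir223, Mirlet7b and Mirlet7c-1 had none. Mir124a-1 had as much EpiLC cover as Mir290a to within 1 kb, at 32.5 kb, but less mESC cover, at 19.2 kb.

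**Figure D5:**
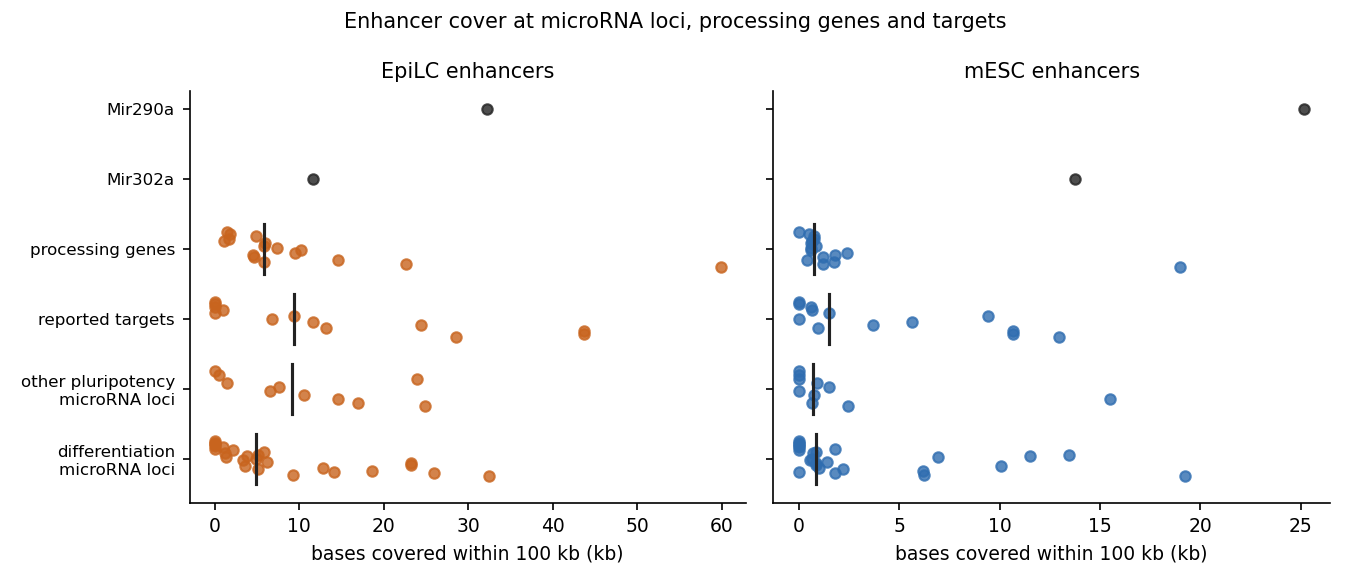
Bases (kb) covered by EpiLC enhancers (left) and mESC enhancers (right) within 100 kb of Mir290a, Mir302a and each gene of 4 lists; each dot is a gene and the vertical bar a list's median. Mir290a has 32254 bp of EpiLC and 25179 bp of mESC cover, and the gene with 59.8 kb of EpiLC cover is Trim71.

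By 5 measures together (counts of EpiLC, mESC and overlapping mESC enhancers and the covered kb in each set), the genes nearest to Mir290a were Fbxo36, Dusp27, Slc25a16, Retreg1 and Uck1. Their distances on the log2 scale ran from 0.550 to 0.764. Fbxo36 had 6 EpiLC and 1 mESC enhancers with 34.5 and 29.9 kb covered. Nearest to Mir302a were Trio, Cep89, Sox13, Mtmr9 and the microRNA gene Mir6407, at distances from 0.162 to 0.378. Trio had 5 EpiLC and 4 mESC enhancers with 12.2 and 12.3 kb covered. Mir302a thus had closer neighbours on these measures than Mir290a had.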

How the data were processed

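The deposited tables are 3 region sets in mm10 with chromosome, start, end and strand. Their values are coordinates and no score, per the file headers. With 0 columns of library values, depth is unknown. The authors lifted both enhancer sets over to mm10, per the series' design text, with a liftover tool not given in the sources used here. Trimmomatic 0.38, bedtools 2.29.2 and Bowtie2 2.3.4.1 appear, with builds dm6 and mm10, in the submitters' processing notes, which state no role for them.

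Starts were taken to count from 0, which leaves those of enhancers uncertain by 1 bp. Hairpins and 5′ ends came from GENCODE M21, and sequences, promoters (250 bases before to 50 after the start) and mature strands from RefSeq GRCm38.p6. Counts used enhancer centres within 100 kb, covered bases were clipped to that window, and overlap meant at least 1 bp. Hairpins at gaps of at most 10 kb formed a cluster. Python 3.11.15, pandas 2.3.3, numpy 2.4.6 and pysam 0.24.0 were used, and the counting functions were tested on simulated data.

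Members and lists were chosen with earlier results of these data known. Named were all microRNAs of both clusters, all protein-coding genes and enhancers within 100 kb, and the 4 genes of each list with most enhancers and up to 4 with none. Also named were list members that stand near each other with the same cover, and the 5 genes most like each hairpin. Likeness was by Euclidean distance over log2(1 + value), with 1 gene per 200 kb. A gene that this rule would name is not reported here. Of 26 differentiation loci listed, 25 matched an annotated name. Values from the authors' gene intervals used 24263 of 24402 rows, leaving out duplicates and rows off the chromosomes.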

Additional observations from a re-analysis of the deposited data

How the results depend on the processing

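Of 73 alternative values for 25 results, 49 stayed within 1.5 times the reported value and 24 did not; the cause was not tested beyond what each change itself does. Within 50 kb, 3 EpiLC enhancers with 5050 bp and 2 mESC enhancers with 1562 bp remained at Mir302a. The share of genes with at least as many enhancers was then 6.58% for EpiLC and 31.1% for mESC enhancers at Mir290a, and 7.52% for mESC enhancers at Mir302a, and 11 differentiation loci had an mESC enhancer. Within 200 kb, Mir290a had 2 mESC enhancers. Without the leading 231 rows it had 0, with 0 bp covered. Where 50% of both regions had to be shared, 1 EpiLC enhancer overlapped at Mir290a, and 1 EpiLC and 1 mESC enhancer at Mir302a. With regions reduced to 500 bp at their centres, 0 EpiLC and 0 mESC enhancers overlapped at Mir290a. When an enhancer counted only for the nearest annotated start within 50 kb, fewer genes of each list had one. Genes with an EpiLC and an mESC enhancer numbered 6 and 6 for processing genes and 5 and 4 for targets. They numbered 3 and 1 for other pluripotency loci, and 1 and 2 for differentiation loci. No share of all genes by this rule is given beside these counts. Counting from the first hairpin by position, an alternative chosen after seeing the data, changed no count at either locus. No paired analysis was possible because the tables hold no value per library, and no replicate could be left out for the same reason. Depth, antibody and genotype effects at these loci were not analysed here.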
